A study of Mus musculus with 4 samples.

Results

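The genes described here are 10 chemokines known from gut epithelium: Ccl6, Ccl9, Ccl20, Ccl25, Ccl28, Cxcl1, Cxcl9, Cxcl10, Cxcl16 and Cx3cl1. They were chosen by name, with earlier results of these data known. Every array probe whose RefSeq accession belongs to any of them was taken, which gave 12 probes for 10 genes among 55681 probes. A single probe reported each of 8 genes, and Ccl25 and Cxcl9 had 2 probes each. After a filter on dim probes, 8 of the 10 genes remained among 24865 genes tested. Of these 24865, 14802 had a gene symbol. The rest were array entries without one, each counted as a gene in every share, rank and median over all genes. Ccl20 and Cxcl10 did not pass that filter and are described by their spot signals.

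The cells were Lgr5-high intestinal stem cells, sorted by flow cytometry from mice carrying the Lgr5-EGFP-Ires-CreERT2 knock-in. Control animals had a working receptor for type I interferon, and knockout animals were Ifnar1-/- in every cell, so the genotype is not restricted to the epithelium. Animals of both groups received poly(I:C), a double-stranded RNA made in the laboratory that triggers interferon release, at 2 mg/kg into the peritoneum daily for 1 week. No untreated arm is described here, so each difference is knockout against control under treatment. There were 2 samples per group on 4 single-colour arrays. Replicate 1 of both groups shared slide 1 and replicate 2 of both groups shared slide 2. The labels do not tell whether replicates were different animals, so a p-value covers only the scatter among these samples, which may be technical.

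Chemokines are small secreted proteins that draw leukocytes bearing the matching receptor along a concentration gradient. Gut epithelium makes some of them constantly, which keeps lymphocytes and plasma cells in the mucosa. Others are induced by interferon or by NF-kappaB signalling and call in T cells or neutrophils. Cxcl16 and Cx3cl1 differ from the rest in being made as membrane proteins that can be shed.

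The scanner software marked 63.3% to 67.7% of the non-control spots per array as well above background and 0 as saturated. Having 4 arrays limits the precision. Values below are log2 signals with the 75th percentile of the array set to 0, so that positive values belong to the brighter spots. Lgr5 was well above background on all 4 arrays, as were the other measured stem cell markers (9 of 9 genes with a probe), and so were 6 of 6 epithelial markers such as Epcam. Ifnar1 itself, read from the brightest of its 3 probes, was at -0.21 and -0.37 in the control and at -1.76 and -2.28 in the knockout. It was therefore lower in both knockout samples and still well above background there. The sources do not place its probes against the disrupted exon, and its dimmer probes are not described here. The values show a lower signal of the brightest probe and no more.

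In the stated fit, which has no slide block, no gene was called. With the slide as a block, the neighbouring CC chemokine genes Ccl9 and Ccl6 were the only ones called of the 8 chemokines tested. Both fell in the knockout. Ccl9 fell 4.77-fold and Ccl6 2.83-fold. The other 6 differed by 0.01 to 0.34 on the log2 scale in either direction, and each of them differed more between the slides than between the genotypes. The calls of Ccl9 and Ccl6 were made with limma over all 24865 genes, with the slide as a block, at an adjusted p under 0.05. In that fit 0.33% of all genes were called lower and 0.0322% higher, against 2 and 0 of the 8 chemokines. The chemokines were listed with earlier results of these data known, so such shares describe them and are not a test. Without the slide block, limma called 0 chemokines and 0% of all genes in either direction. An unadjusted p under 0.05 was reached there by 2 chemokines lower and 0 higher, against 1.72% and 1.04% of all genes. With the block, that unadjusted threshold held the same count of chemokines, 2 lower and 0 higher, against 4.93% and 7.31% of all genes. The median difference was -0.15 over the 8 chemokines and 0.02 over all genes tested.

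**Figure D1:**
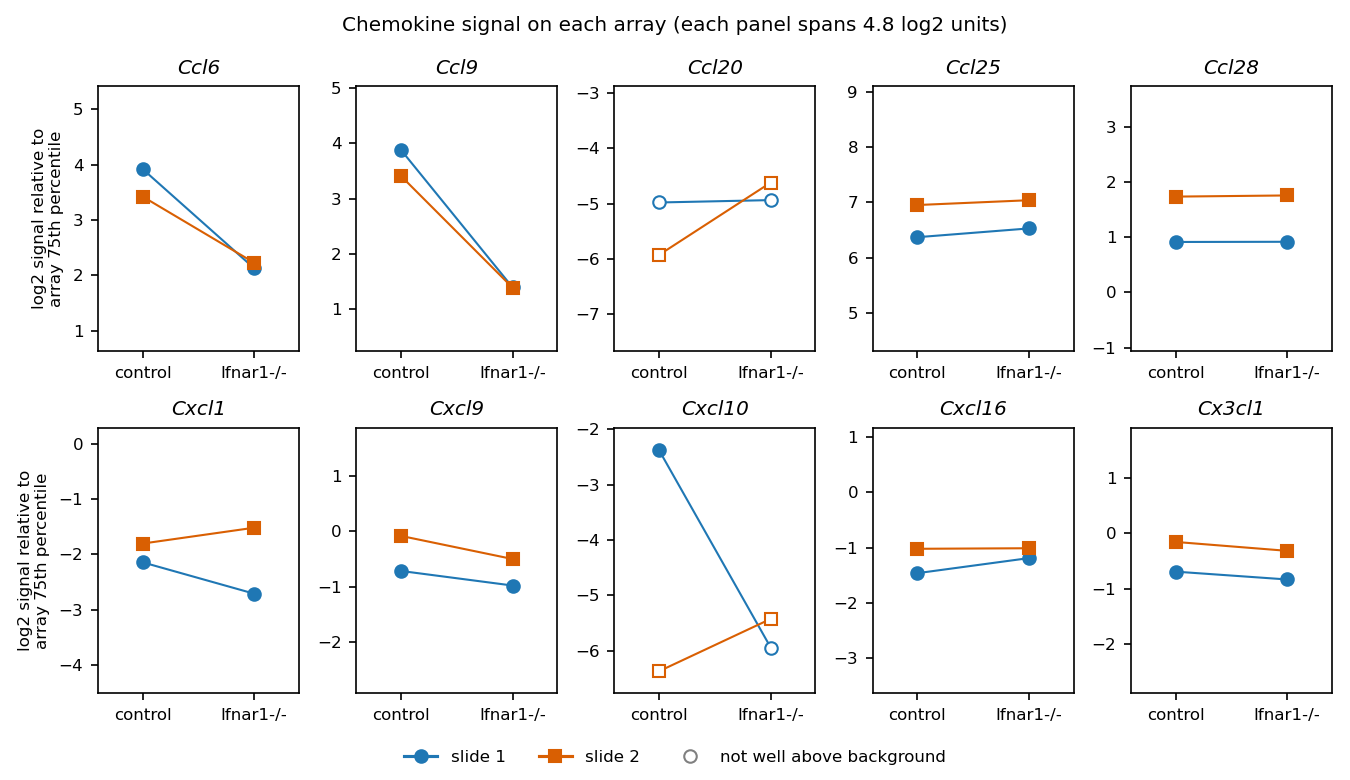
Signal of each chemokine on the 4 arrays, as log2 signal above or below the 75th percentile of that array (vertical axis) by genotype (horizontal axis); for genes with 2 probes the brighter is shown. Lines join the 2 arrays of a slide, open symbols were not well above background, and every panel spans the same log2 range. Ccl6 and Ccl9 drop on both slides, Cxcl10 stands high on 1 control array alone, and Ccl25, Ccl28, Cx3cl1 and the brighter Cxcl9 probe lie higher on slide 2 in both genotypes.

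Ccl9, a ligand of the receptor CCR1 that draws myeloid cells and is known from the epithelium over Peyer's patches, was at 3.88 and 3.41 in the control and at 1.39 and 1.39 in the knockout. Both knockout samples lay below both control samples, and they nearly coincided while the controls differed by 0.47. In spot signal this was 3583 and 2623 units against 617 and 663. The group means were 3.65 ± 0.33 and 1.39 ± 0.0039 (SD, n = 2). The difference was -2.49 on slide 1 and -2.02 on slide 2, with a mean of -2.25 ± 0.14 (SE). In limma its adjusted p was 0.0115 with the slide block and 0.224 in the fit that leaves the block out. The 95% confidence interval of that mean, not adjusted for the number of genes, ran from -2.60 to -1.91 with the block and from -2.82 to -1.69 without it. Among all genes tested, Ccl9 had the 82nd lowest difference.

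Ccl6, another CCR1 ligand, was at 3.92 and 3.42 in the control and at 2.12 and 2.23 in the knockout. Both knockout samples again lay below both controls, and again control 1 was the highest sample. Its spots gave 3685 and 2650 units for the control samples against 1025 and 1185 for the knockout samples. The group means were 3.67 ± 0.35 and 2.17 ± 0.071 (SD, n = 2). The difference was -1.80 on slide 1 and -1.20 on slide 2, with a mean of -1.50 ± 0.16 (SE). In limma its adjusted p was 0.0446 with the slide block and 0.392 in the fit that leaves it out. Its 95% confidence interval ran from -1.89 to -1.11 with the block. Groups that do not overlap with the knockout lower were found in 2 of the 8 chemokines, which are these genes, and in 11.5% of all genes tested.

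The measured fall was larger for Ccl9 than for Ccl6. The log2 difference between their spots shifted by -0.69 on slide 1 and by -0.82 on slide 2, a mean of -0.76, so the loss of Ccl9 exceeded that of Ccl6 by a similar amount on both slides. With 2 samples per group this contrast was not tested. Both calls depend on the variance model. With the slide block but no intensity trend in the variance, limma gave adjusted p = 0.454 for Ccl9 and 0.484 for Ccl6. In the fit without the block, Ccl9 passed when control 2 was left out (difference -2.49, limma adjusted p = 0.012) or when knockout 2 was left out (-2.25, limma adjusted p = 0.0356), and not when control 1 or knockout 1 was left out (limma adjusted p = 0.0699 and 0.0758). Ccl6 passed in none of these 4 fits (limma adjusted p from 0.0769 to 0.551).

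**Figure D2:**
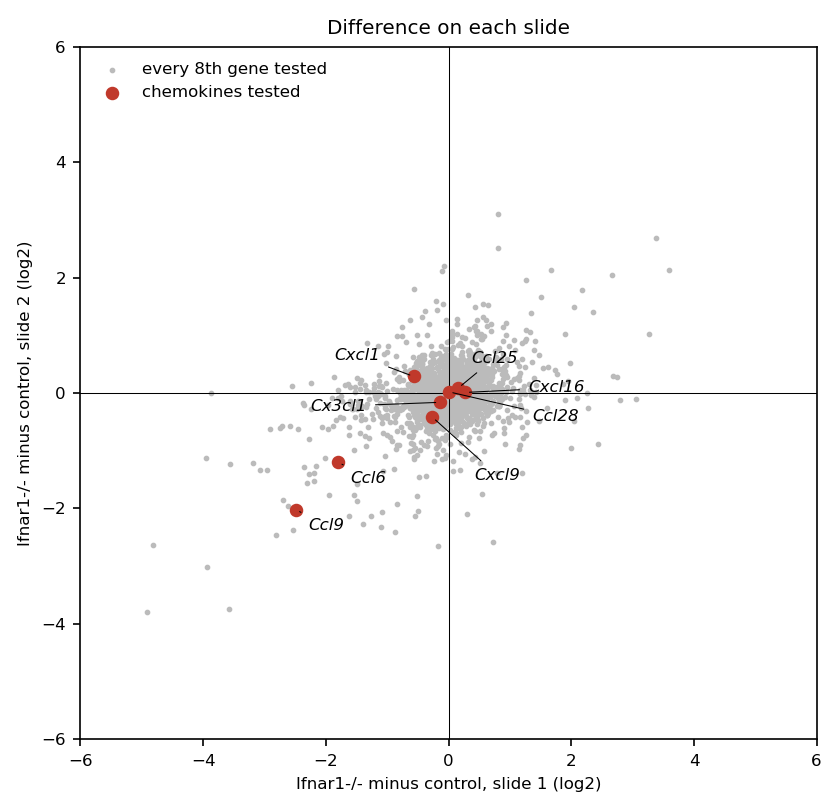
Knockout minus control on slide 1 (horizontal axis) and slide 2 (vertical axis), in log2 units, for the 8 chemokines tested (red) and every 8th gene of all genes tested (grey). Ccl9 at -2.49 and -2.02 and Ccl6 at -1.80 and -1.20 lie in the lower left quadrant away from the other chemokines, which sit near the origin.

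The bases before the annotated starts of both genes are shown because these genes lie side by side and fell together. The sequences come from RefSeq (assembly GRCm38.p6), cover 250 bases on the minus strand of chromosome 11 and end at the base before the start. Capitals mark the longest run found in both windows, 13 bases.
Ccl9, chr11:83578637-83578886: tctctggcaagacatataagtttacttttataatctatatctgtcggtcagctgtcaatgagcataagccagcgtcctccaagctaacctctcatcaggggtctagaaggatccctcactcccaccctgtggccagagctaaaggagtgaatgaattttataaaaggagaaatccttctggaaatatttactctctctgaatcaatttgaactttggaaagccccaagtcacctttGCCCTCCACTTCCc
Ccl6, chr11:83593088-83593337: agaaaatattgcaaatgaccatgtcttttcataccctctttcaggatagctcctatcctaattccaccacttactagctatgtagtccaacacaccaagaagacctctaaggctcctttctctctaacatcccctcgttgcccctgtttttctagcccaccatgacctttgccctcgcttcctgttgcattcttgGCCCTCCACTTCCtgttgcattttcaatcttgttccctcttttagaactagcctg
The shared run starts at position -14 for Ccl9 and at -55 for Ccl6, counted from the base before the start as -1, and 3 of 32851 promoter windows of the same length hold it. Those 3 are the windows of Ccl9 and Ccl6, from which the run was picked, and that of Gm31822. The count is therefore not a test of a shared element. In RefSeq's gene order Ccl5 lies beyond Ccl9 and Ccl3 beyond Ccl6. Ccl5, a chemokine for T cells and monocytes, was at -0.39 and 0.62 in the control and at -0.26 and 0.86 in the knockout, a difference of 0.19 (limma with slide block, adjusted p = 0.593), and Ccl3 was not well above background on any array.

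Marker lists of other cells are given beside Ccl6 and Ccl9, and their part in these differences was not tested. In sorted cell pools, fewer cells of a type and less RNA per cell cannot be told apart. Of all genes tested, 0.33% were called lower and 0.0322% higher with the slide block. On both slides, 27.3% of all genes lay lower in the knockout and 33.9% higher. Of 9 Paneth cell markers tested, 7 fell with the slide block and 0 rose, and their median was -2.07, from -2.43 on slide 1 to -1.58 on slide 2. Their summed linear signal, in multiples of the 75th percentile, was 472 and 606 in the controls against 121 and 197 in the knockouts, and all 9 stayed well above background on all 4 arrays. Of 13 leukocyte markers tested, Lyz2 fell (difference -2.64; limma with slide block, adjusted p = 0.00828) and 0 rose, with a median of 0.01. Lyz2 is a close paralog of the Paneth cell lysozyme gene Lyz1, which fell too (-2.01; limma with slide block, adjusted p = 0.0131). Whether the 2 probes share signal was not tested. The summed leukocyte signal was 240 and 359 in the controls against 233 and 349 in the knockouts. Most of it came from the brightest of 3 Itgam probes, which was at 7.69 and 8.36 in the control and at 7.67 and 8.35 in the knockout. The pan-leukocyte gene Ptprc differed by 0.07, and Itgax, Laptm5 and Coro1a were not well above background on any array. Of 6 tested markers of M cells and the follicle-associated epithelium, 0 passed with the slide block, the median was -0.41, the summed signal was 15.9 and 14.8 in the controls against 8.40 and 12.8 in the knockouts, and Gp2, a defining M cell gene, was not well above background on any array. Of 8 goblet cell markers 0 passed, with a median of -0.28 and a summed signal of 141 and 143 against 110 and 152. Of 9 enteroendocrine markers 0 passed, but 8 lay below the control on both slides, with a median of -0.55 and a summed signal of 9.06 and 13.3 against 5.29 and 8.08. Other lists had positive medians with 0 members passing. The 9 enterocyte markers had a median of 0.39, with 6 higher on both slides and a summed signal of 54.3 and 63.9 against 74.1 and 80.5. The 9 Lgr5 stem cell markers had a median of 0.20, with 7 higher on both slides and a summed signal of 66.4 and 65.2 against 76.1 and 68.8. Tuft cell markers (5 tested) had a median of 0.08 and those of stroma and endothelium (3 tested) one of 0.37, with Col1a1, Pdgfra and Cdh5 not well above background on any array.

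Ccl25 and Ccl28, which keep lymphocytes and plasma cells in the mucosa, did not pass. Ccl25, the ligand of CCR9 made in the small intestine, was at 6.37 and 6.95 in the control and at 6.53 and 7.04 in the knockout. Its spots gave 20100 and 30540 units in the controls against 21690 and 33330 in the knockouts, and slide 2 was higher in both genotypes. The difference was 0.12 (95% confidence interval from -0.04 to 0.29 with the slide block and from -0.62 to 0.87 without; limma with slide block, adjusted p = 0.49). Its dimmer probe, for a noncoding RefSeq transcript of the gene, was well above background on 3 of the 4 arrays and was dim in knockout 1. It was at least 2.27-fold lower in the knockout on slide 1 and differed by 0.18 on slide 2, so the brighter and the dimmer probe disagreed in direction on slide 1. Ccl28, which draws IgA plasma cells through CCR10, was at 0.91 and 1.73 in the control and at 0.92 and 1.75 in the knockout. The genotypes differed by 0.01 (95% confidence interval from -0.26 to 0.28 with the slide block; limma, adjusted p = 0.975), while slide 2 exceeded slide 1 by 0.82 and 0.84. Of 7 transcription factors of small intestinal identity, such as Cdx2 and Hnf4a, 0 passed in either direction and the median was -0.004.

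Ccl20, the CCR6 ligand of the epithelium over lymphoid follicles, was not well above background on any array. Its spots gave 7.72 and 4.06 units in the controls against 7.69 and 10.3 in the knockouts, with a scanner error of 2.21 to 2.57. No level or fold can be given for it, and these arrays do not show that it was absent.

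Cxcl9 and Cxcl10 are ligands of CXCR3 that interferons induce and that attract activated T cells; Cxcl9 did not pass, and Cxcl10 was too dim to test. Cxcl10 was well above background on the array of control 1 alone, with 46.8 ± 5.4 units (scanner error of 1 spot). The remaining arrays gave 2.98 units in control 2, 3.81 in knockout 1 and 5.89 in knockout 2 with scanner errors of 2.98, 3.22 and 2.52 units, and none was well above background. The control samples thus disagreed, 1 being well above background and the other not. With the dimmest signal still marked as well above background on knockout 1 taken as a floor, Cxcl10 was at least 3.69-fold lower in the knockout on slide 1, a value from 1 pair of samples. On slide 2 neither sample was well above background, so no fold is given there. Of 58 chemokine and chemokine receptor genes with a probe, Cxcl10, Ccl12 and Ccr2 were well above background on control 1 alone, and 1.46% of all probes were.

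Cxcl9 had 2 probes that disagreed. The brighter was well above background on all 4 arrays, at -0.71 and -0.08 in the control and at -0.98 and -0.50 in the knockout. It was lower in the knockout on both slides, by 0.26 and 0.42, but the groups overlapped and it did not pass (mean -0.34, 95% confidence interval from -0.73 to 0.04 with the slide block; limma, adjusted p = 0.441). The dimmer probe gave 15.0 and 5.94 units in the controls against 2.61 and 15.6 in the knockouts, so it was well above background on control 1 and knockout 2 and pointed opposite ways on the slides. Cxcl11, the remaining CXCR3 ligand, has no probe named here, and Cxcr3 was not well above background on any array.

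**Figure D3:**
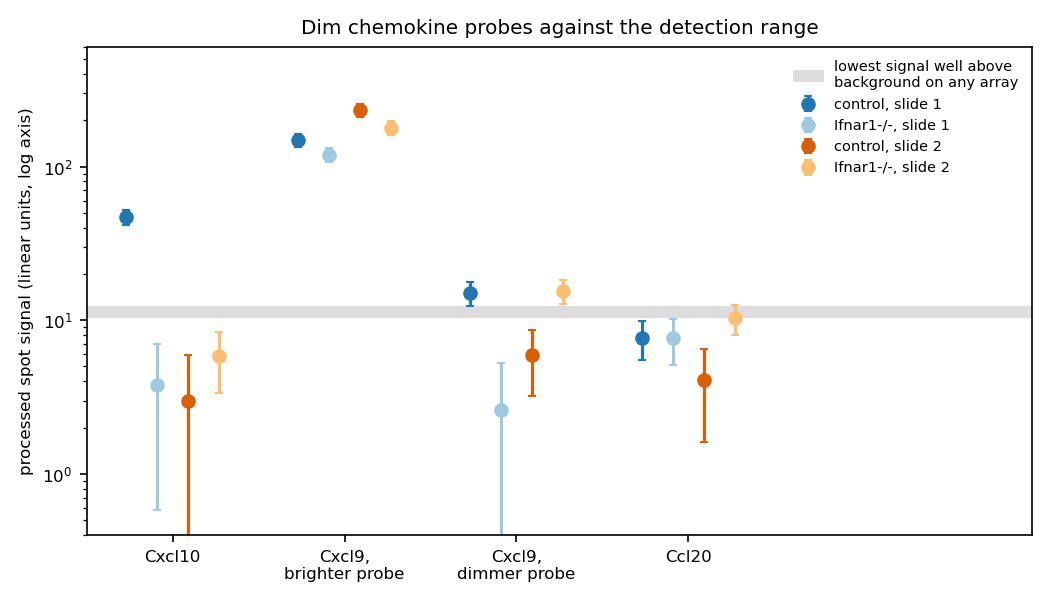
Processed spot signal in linear units on a log axis for the probes of Cxcl10, Cxcl9 and Ccl20, by array. Bars are the scanner software's error of each spot and run off the axis where the error reaches the signal, and the grey band spans the lowest signal called well above background on the 4 arrays (10.4 to 12.3 units); Cxcl10 lies above the band on control 1 alone and Ccl20 on none.

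The upstream windows of Cxcl10 and Cxcl9 are shown because interferon and NF-kappaB signalling are known to act on chemokine genes through short elements of this kind. The 250 bases are from RefSeq (GRCm38.p6, minus strand of chromosome 5) and end before the start. Capitals mark matches, on either strand and with overlapping matches joined, to the interferon-stimulated response element core (GAAA, any 2 bases, GAAA) or to the kappaB consensus.
Cxcl10, chr5:92348890-92349139: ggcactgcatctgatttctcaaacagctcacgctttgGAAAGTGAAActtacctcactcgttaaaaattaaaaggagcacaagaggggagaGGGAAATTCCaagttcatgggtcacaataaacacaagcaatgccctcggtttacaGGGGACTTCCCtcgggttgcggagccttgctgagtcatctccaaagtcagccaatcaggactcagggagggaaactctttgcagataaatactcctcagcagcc
Cxcl9, chr5:92328080-92328329: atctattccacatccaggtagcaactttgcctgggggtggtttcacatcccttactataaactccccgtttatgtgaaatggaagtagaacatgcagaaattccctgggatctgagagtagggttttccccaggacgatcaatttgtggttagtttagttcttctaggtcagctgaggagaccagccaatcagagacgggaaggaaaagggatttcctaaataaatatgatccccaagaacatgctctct
Cxcl10 holds the first motif from -213 to -204 and the kappaB consensus from -159 to -150 and from -104 to -94, and the window of Cxcl9 holds neither. Promoter entries matched 9 of the 10 chemokines, in 10 windows, with Cxcl16 not listed. The interferon core was in 1 of these 10 windows and in 2.98% of all 32851. The gamma-activated sequence TTCNNNGAA was in 0 of 10 and in 7.02% of all. The kappaB consensus was in 4 of 10, those of Ccl9, Ccl20, Cxcl1 and Cxcl10, and in 7.25% of all. A match is a description of the letters and not a binding site.

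Cxcl1, the CXCR2 ligand that calls in neutrophils, was dim but above background on all 4 arrays. It was at -2.15 and -1.81 in the control and at -2.71 and -1.52 in the knockout, so the knockout samples were both the lowest and the highest. The difference was -0.57 on slide 1 and 0.29 on slide 2, with a mean of -0.14 (95% confidence interval from -0.85 to 0.57 with the slide block; limma, adjusted p = 0.871). Of 15 tested genes of NF-kappaB and IL-17 signalling, which induce Cxcl1 and Ccl20, 0 passed in either direction with the slide block, and the median was -0.06, with -0.26 and 0.11 on the slides. Those with the smallest p were the inhibitor Nfkbia at -0.40, the deubiquitinase Tnfaip3 at -0.56, the ubiquitin ligase Birc3 at -0.40 and the receptor chain Il17ra at -0.14 (limma with slide block, adjusted p = 0.327, 0.378, 0.45 and 0.577). The sensor Tlr3 was not well above background on any array.

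Neither membrane-bound chemokine passed. Cxcl16, the CXCR6 ligand, was at -1.46 and -1.02 in the control and at -1.19 and -1.01 in the knockout, and the groups overlapped. The difference was 0.14 (95% confidence interval from -0.31 to 0.59 with the slide block; limma, adjusted p = 0.777). Cx3cl1, the CX3CR1 ligand known as fractalkine, was at -0.69 and -0.15 in the control and at -0.83 and -0.32 in the knockout. It was lower on both slides, by 0.14 and 0.16, while slide 2 exceeded slide 1 by 0.54 and 0.52 (mean -0.15, 95% confidence interval from -0.52 to 0.22 with the slide block; limma, adjusted p = 0.704). Adam10 and Adam17, the proteases that shed both proteins, differed by -0.02 and 0.10. Of the 6 genes of chemokine shedding and trimming, 0 passed, and the smallest p were those of Dpp4 (-0.16), Rhbdf2 (0.15), Timp3 (0.37) and Adam17.

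Directions over the tested chemokines were mixed. With the knockout below the control on both slides there were 4 of 8, Ccl6, Ccl9, Cx3cl1 and Cxcl9, against 27.3% of all genes, and with the knockout above on both slides there were 3 of 8, Ccl25, Ccl28 and Cxcl16, against 33.9%. The slide had its own pattern: 6 of 8, all but Ccl6 and Ccl9, were higher on slide 2 in both genotypes, as were 45.3% of all genes tested. Ccl6 was split between the genotypes, and Ccl9 was the 1 of 8 lower on slide 2 in both, against 29.6% of all genes.

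Most other chemokine genes were dim. Of 27 listed, 25 had a probe, 15 of these were not well above background on any array, and 6 were tested. None of the 6 passed with the slide block (0 lower, 0 higher), and their median was -0.21. Ccl27a, a relative of Ccl28 that also binds CCR10, differed by 0.53, the lymphoid chemokine Ccl19 by -0.33 and the monocyte chemokine Ccl2 by -0.53 (limma with slide block, adjusted p = 0.31, 0.385 and 0.403). Cxcl5, a CXCR2 ligand, differed by -0.29, Cxcl2 was not well above background on any array, and Cxcl12 was above it on 1 array of each group.

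Receptors were rarely detected. Of 23 chemokine receptor genes, all with a probe, 10 were not well above background on any array, 6 were tested and 0 passed, with a median of -0.19. Ccrl2, an atypical receptor, differed by -0.62, Ccr8 by -0.45, Ccr9 by -0.27 and the decoy receptor Ackr2 by -0.12 (limma with slide block, adjusted p = 0.432, 0.575, 0.725 and 0.925). Ccr1, the receptor for Ccl6 and Ccl9, was not well above background on any array. Ccr6 was above it on 1 knockout array, and Cxcr4 on 1 array of each group.

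Of 14 interferon signal transducers tested, Irf7 and Ifnar1 fell with the slide block and 0 rose, against 0.33% and 0.0322% of all genes. Ifnar1 is the gene disrupted in the knockout, so its call says nothing about the other transducers, of which Irf7 alone passed. The median of the list, Ifnar1 included, was -0.33, with -0.51 and -0.22 on the slides. Stat2 differed by -1.15 and Irf9 by -0.92, both partners in the complex that type I interferon activates (limma with slide block, adjusted p = 0.126 and 0.167). Irf1, a factor that takes part in Cxcl9 induction, had a difference of -0.18 and did not pass (adjusted p = 0.483 in limma with the block). Irf7, in contrast, was at 2.07 and 1.33 in the control and at -2.84 and -2.46 in the knockout, a fall of 20.4-fold (limma with slide block, adjusted p = 0.0131).

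**Figure D4:**
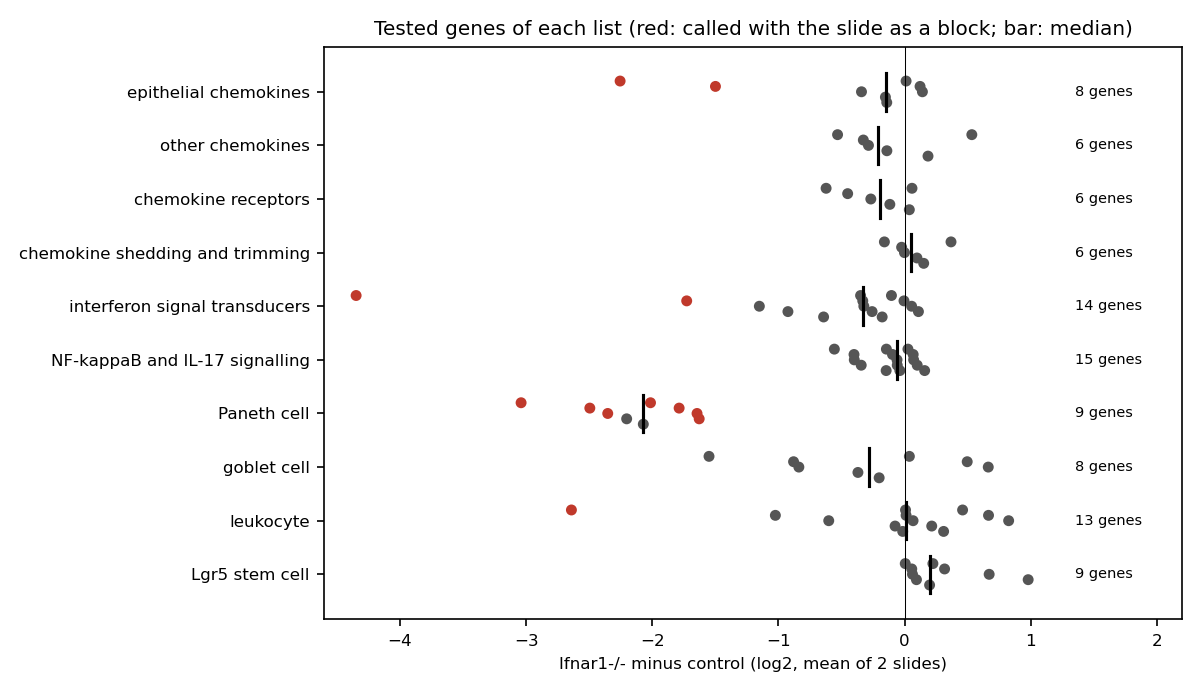
Knockout minus control (horizontal axis, log2, mean over both slides) for every tested gene of the chemokine list and of some related and marker lists (rows). Not drawn are the small intestinal identity factors and the enteroendocrine, enterocyte, tuft, M cell, stroma and endothelium, and epithelium markers. Points are genes, red where limma with the slide block called them, and black bars are list medians; Ccl9 and Ccl6 stand apart within a row whose median is -0.15, and the Paneth cell row is centred at -2.07.

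Genes whose 4 values ran most like those of a chemokine were sought by the root mean square difference of the values after each gene's mean was removed, over 13929 named genes and 4 arrays. For Ccl9 these were Samd9l (0.12 log2 units), Igtp (0.14) and Mt2 (0.16), which differed by -2.37, -2.09 and -2.14. For Ccl6 they were Irgm2 (0.11), H2-Q7 (0.12) and Helz2 (0.13), which differed by -1.29, -1.27 and -1.40. For the 6 chemokines that did not pass, the nearest genes were nearer, from 0.00438 for Cars with Cxcl9 and 0.00564 for Mrpl9 with Ccl25 to 0.0253 for Rbms3 with Cxcl1. Matching on the 4 values builds in similar differences. The distances were not scaled to the size of a gene's change, so they do not rank the chemokines.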

How the data were processed

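Total RNA from 4 sorted samples was amplified and hybridised to single-colour Agilent arrays, per the labels' protocols. The deposited scanner tables hold spot intensity, background-subtracted on a linear scale by the authors with Feature Extraction 12.0.3.1 per the file headers (11.5.1.1 per the submitters' processing notes), with error estimates and flags. The authors' deposited series table equals this intensity times 1 constant per array (5.60 to 6.68; column medians 223 to 249), a scaling of unknown target, and served as an alternative.

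Control spots and outlier spots (111 to 172 per array) were left out, log2 signals were centred on each array's 75th percentile over the remaining spots, and spots of a probe were averaged. Probes well above background on both arrays of a group were kept (35422). Accessions without versions were matched to RefSeq genes of GRCm38.p6, naming 28331 of 55681 probes. Probes without a match were grouped by the array's own identifier, and each such entry counted as a gene. A gene was represented by its brightest kept probe. The array design uses another build, so coordinates are given for RefSeq sequences alone.

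Groups were compared with limma 3.58.1 (R 4.3.3) with a variance trend over intensity; p-values were adjusted by Benjamini-Hochberg across every gene tested, with 0.05 as the threshold. The fit was run without a block as the stated fit and with the slide, which is also the replicate number, as a block. The pairing rests on the shared slides, and slide differences in control and knockout correlated at r = 0.563 across genes, which are not independent replicates. The block leaves 1 residual degree of freedom. Simulated data were used only to check that the fits return, on average, a known difference added to some genes. The added differences were larger than those of Ccl9 and Ccl6, so that check does not bear on their calls. The members and gene lists were chosen with earlier results of these data known. Named are all members, Ifnar1, up to 4 genes per related list by smallest p with the block, fixed genes of interest (1 of which is not reported here), and the nearest genes by pattern; marker genes were named to show which were called or dim. The closing section gives the alternatives tried. The folds called "at least" set the control 1 signal against knockout 1, taking the higher of its dim signal and the lowest signal well above background on that array.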

Additional observations from a re-analysis of the deposited data

How the results depend on the processing

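Without the slide block, 0 chemokines were called under any scaling, background, filter, probe, outlier, variance or threshold setting tried, and 0 genes in all. Leaving out 1 array of the 4 in turn gave 0 to 1 chemokines lower (Ccl9), 9 to 88 genes lower and 0 to 3 higher, a lone array being assumed to vary like the other group. With the slide as a replicate block, 2 chemokines were lower (Ccl9 and Ccl6), with 82 genes lower and 8 higher among all. The authors' series table had to give the same counts, since centring removes its constant per array. The block with quantile normalization gave 2 chemokines lower, 123 genes lower and 22 higher; with normexp at an offset of 50 it gave 2, 219 and 123; with probes above background on all 4 arrays 2, 70 and 8; and with the mean of a gene's probes 2, 112 and 24. Settings chosen after seeing the data gave, with the block, 2, 426 and 340 without a filter, 2, 184 and 82 with median scaling, and 2, 107 and 14 with the 75th percentile taken over probes. The block without the intensity trend called 0 genes. Ccl9 and Ccl6 were thus called in 9 of 10 fits with the block, the fit on the authors' series table being a repeat by construction. Their adjusted p in limma ran from 2.04e-09 to 0.454 and from 4.07e-07 to 0.484, and the cause of that spread was not tested. Their differences stayed negative throughout, from -2.49 to -2.02 and from -1.75 to -1.25. The difference of Cxcl9 was negative throughout too, while the other 5 tested chemokines changed sign in some setting, none of them called. Signal near background limits what Ccl20, Cxcl10 and the dimmer Cxcl9 and Ccl25 probes can show, and 2 samples per group limit every comparison.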

Other observations

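Among 58 chemokine and chemokine receptor genes with a probe, 6 were well above background on a single array. On control 1 these were Cxcl10, the monocyte chemokine Ccl12 and the monocyte receptor Ccr2, and on knockout 2 they were Ackr4, Ccr4 and Ccr6. Ccr2 was at -2.13 on control 1 and between -6.57 and -6.33 on the other arrays, and Ccl12 was at -4.12 against -6.23 to -5.67. Over all probes, 1.46% were well above background on control 1 alone, 0.7% on control 2 alone, 1.1% on knockout 1 alone and 2.09% on knockout 2 alone. Probes that also exceeded the next array by more than 3 log2 units numbered 44 on control 1, 10 on control 2, 39 on knockout 1 and 17 on knockout 2.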
